A study of Danio rerio with 1109 samples.

Results

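The keratin and claudin genes were taken as all genes whose symbol begins with *krt* or *cldn*, in small letters or capitals, whichever way they behaved in the data. There were 63 of them among 32057 genes, 21 with a keratin symbol and 42 with a claudin symbol. Keratins are the intermediate filament proteins of epithelial cells and form filaments only as pairs of a type I and a type II chain. Claudins are membrane proteins that seal the tight junctions between epithelial cells or open them to selected ions, and tissues differ in the claudins they use. In fish the skin and the kidney tubule both face media that differ from the body fluid in salt, and both rest on such junctions.

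The cells came from trunks of zebrafish embryos at 48 hpf, which were pooled, partly dissociated with trypsin, sorted by fluorescence and sequenced 1 cell per well from full-length cDNA. Of the 1109 cells, 32.9% came from the *pdgfra:mCit* line on 1 plate, called the *pdgfra* plate here, and 33.1% and 34% from the *vegfc:Gal4FF;UASGFP; kdrl:mCherry* line on separate plates, called *vegfc* plates 1 and 2. In the *vegfc* line the *vegfc* driver turns on GFP through Gal4 and the *kdrl* promoter drives mCherry in endothelium. All embryos carried reporter transgenes and no mutation or treatment is named. The sort enriched for reporter cells, the digestion favoured cells near the surface, and the labels do not say which reporter a cell of the *vegfc* plates was sorted for, so the number of cells of a class says nothing of its size in the embryo. No embryo or pool is named for a cell. A plate is therefore 1 sample, cells are not replicates, no p-value was computed, and the *pdgfra:mCit* line cannot be told apart from its plate. The intervals given are exact 95% intervals for counting error alone. Where 0 cells of a class expressed a gene, the share allowed comes from an approximation that lies below the exact limit. For 0 of 18 cells it is 16.7%, where the exact limit is 18.5%. With no molecular identifiers in the libraries several reads can stem from 1 molecule.

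Gene counts per cell lay between 50045 and 782140, with medians of 279923 on the *pdgfra* plate, 301980 on *vegfc* plate 1 and 315212 on *vegfc* plate 2. A cell was said to express a gene at 20 or more raw counts. Levels are given in CPM, the counts of a gene scaled to a common total of all gene counts, either of 1 cell (the level of a cell) or summed over the cells of a class (the level of a class). The log2 ratio of 2 class levels was taken after adding 1 CPM to each. Gene lengths were not used, so that levels were compared between cells and not between genes.

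Cell classes were set by genes other than the keratins and claudins. The tubular cells were the 18 cells with 20 or more counts of *cdh17*, which encodes a cadherin of the zebrafish pronephric tubule. They held 51 to 2014 counts of it, and 23 cells just outside the rule held 10 to 19. The 16 epidermal cells expressed at least 5 of 12 epidermal markers, such as *epcam* and *cdh1*, with 2 cells at 5 markers and 14 cells left out at 4. A further 22 cells expressed both *epcam* and *cdh1* but met neither rule and are called other epithelial cells. By their own markers, 689 cells were fibroblasts, 66 were neural cells, 19 were endothelial cells and 78 were immune cells. Of the tubular cells, 1, 13 and 4 lay on the *pdgfra* plate and on *vegfc* plates 1 and 2. Epidermal cells were found only on the *vegfc* plates, 11 on plate 1 and 5 on plate 2. Median depth was 359538 counts in epidermal cells, 408103 in tubular cells and 280879 in fibroblasts.

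The *cdh17* rule joined cells of different kinds. The 10 *clcnk*+ cells had 20 or more counts of *clcnk*, a chloride channel of the distal nephron, and held between 1037 and 2014 counts of *cdh17* (median 1448). In these, *slc12a3*, the sodium chloride cotransporter of the distal nephron, was expressed in 80% and *pax8*, a transcription factor of the nephron, in 60%. The 8 *clcnk*− cells had no count of *clcnk*, between 51 and 250 counts of *cdh17* (median 74) and no expression of *slc12a3* or *pax8*. Of the genes listed for gut, *foxa3*, *cdx1b* and *hnf4a* were expressed in 87.5%, 75% and 37.5% of the *clcnk*− cells, against 60%, 0% and 0% of the *clcnk*+ cells. The other genes of that list did not share 1 order, with *fabp2* in 25% of the *clcnk*− and 10% of the *clcnk*+ cells and *vil1* in 12.5% and 50%. *foxa1*, on the list for hypochord, was expressed in 87.5% of the *clcnk*− and 10% of the *clcnk*+ cells. *atp1a1a.4*, a sodium pump subunit on the list of tubule genes, was expressed in 100% of the *clcnk*− and 90% of the *clcnk*+ cells, against 12.5% of epidermal cells. Since *slc12a3* and *pax8* were found in the *clcnk*+ cells alone, the *clcnk*− cells are called by their rule. *lhx1a*, *cdh16* and *slc26a1*, further genes of the tubule list, were expressed in none of the 18 cells. *slc12a1* was expressed in 10% of the *clcnk*+ and 0% of the *clcnk*− cells. *gata3*, also on that list, went the other way. It was expressed in 25% of epidermal and 11.1% of tubular cells, in 20% of the *clcnk*+ and 0% of the *clcnk*− cells.

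Among the epidermal cells, 8 met only the list of outer-layer markers, with at least 3 of 5 genes such as *agr1*, *evpla* and *ppl*. A further 3 met only that of the basal layer, with both *tp63* and *col17a1a* expressed. *itgb4*, also listed for the basal layer, was not used to choose them. 1 cell met both lists and 4 met neither. Genes of other classes were also read in these cells. Among 6 immune markers, *lyz* reached 20 counts in 81.2% of epidermal cells and 61.1% of tubular cells, *lcp1* in 31.2% and 33.3%, and *npsn* in 37.5% and 27.8%, while *ptprc* was expressed in 0 cells of either class. Of the fibroblast genes, *col1a1a* was expressed in 81.2% of epidermal and 88.9% of tubular cells and *pdgfra* in 0 cells of either. Their part in the results was not tested.

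Genes with a keratin symbol took up 2.30% of the counts of epidermal cells, 0.779% in tubular cells, 0.397% in fibroblasts and 0.0542% in neural cells. Claudins took up 0.804% in epidermal and 0.638% in tubular cells, against 0.0231% in fibroblasts. The median epidermal cell expressed 9 keratin and 7 claudin genes, the median tubular cell 4 and 6, and the median fibroblast 3 and 0. As whole classes, epidermal and tubular cells thus stood close in their number of claudins and apart in their keratins. Within the classes the number of claudins differed more. The median was 7 in outer-layer and 4 in basal-layer cells, and 7 in *clcnk*+ and 4.5 in *clcnk*− cells. These values go by symbol. They take in *KRTCAP2*, which is not a keratin, and leave out *cyt1* and *cyt1l*, type I keratins under other symbols.

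Of the 63 genes, 45 were found in at least 3 cells with at least 300 counts in all, 16 keratins and 29 claudins, as were 18529 genes overall. A gene was said to mark a class when at least 25% of the class expressed it and its level there was at least 4 times, or 2 on the log2 scale, that in the other of the 2 epithelial classes and that in all remaining cells. By this rule 15 of the 45 marked epidermal cells, 9 keratins and 6 claudins, where 2.39% of all tested genes did so. Tubular cells were marked by 3 of the 45, all claudins, against 2.17% of all genes. A further 4, *cldn7b*, *cldnb*, *krt92* and *cldn30*, met the share and the level over the remaining cells in both classes, against 0.826% of all genes. The median log2 ratio of epidermal over tubular level was 1.16 over the 45 genes and 0 over all tested genes. The epidermal count stood far above the background, and the tubular count rested on 3 genes.

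**Figure D1:**
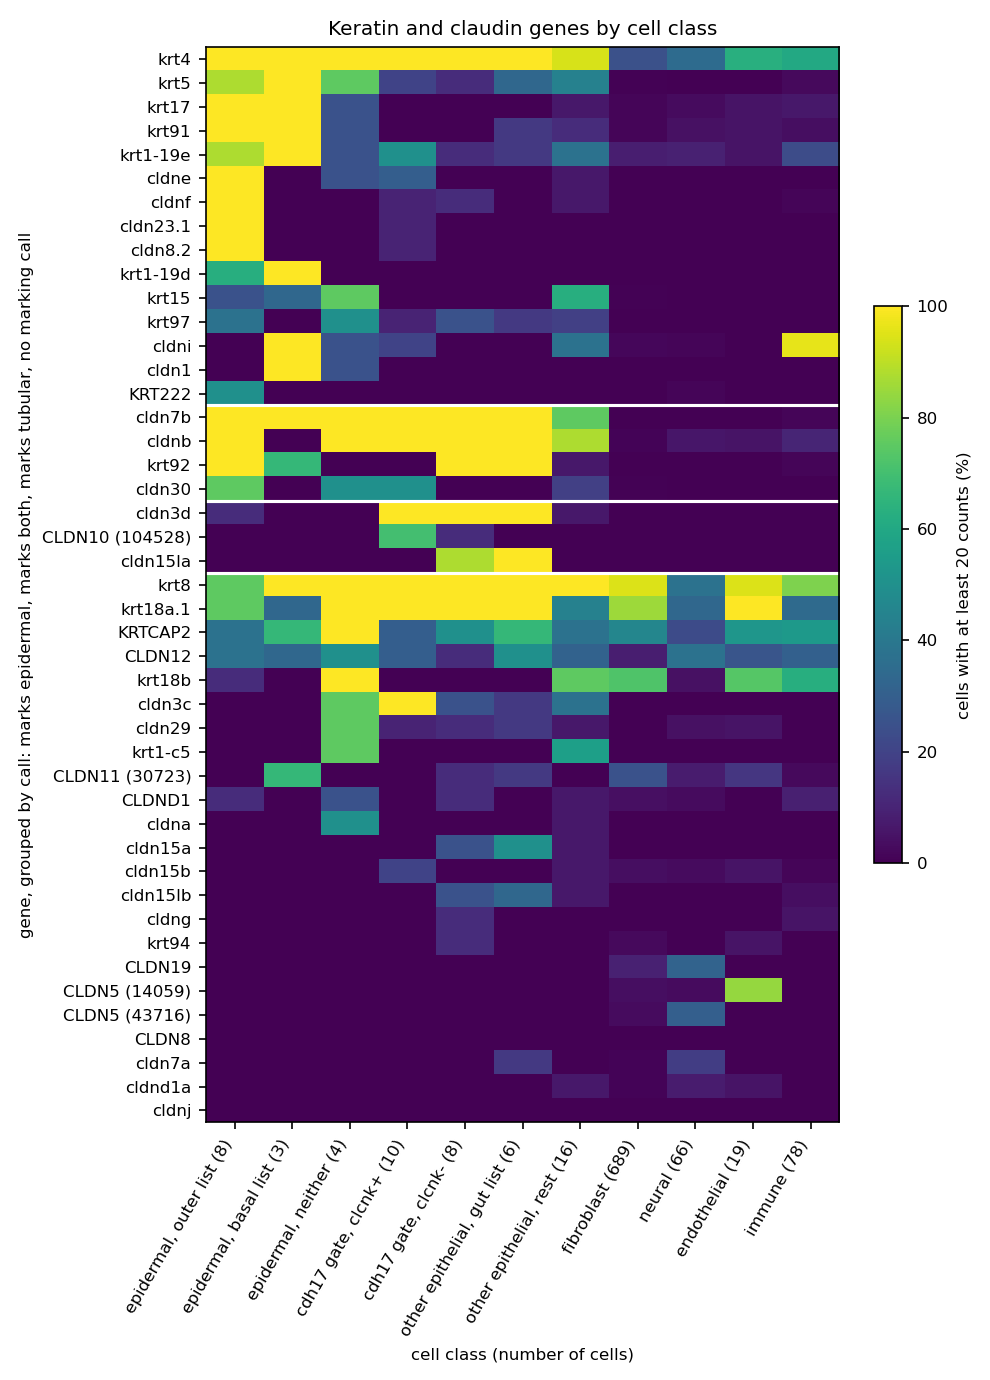
Share of cells (%) with at least 20 counts of each of the 45 keratin and claudin genes that passed the filter on low counts, by cell class, with the number of cells in brackets. The rows are grouped by white lines into the 15 genes that marked epidermal cells, the 4 that marked both classes, the 3 that marked tubular cells and the 23 with no marking call, and *krt4* is high in all epithelial columns while *krt8* and *krt18a.1* extend into fibroblasts and endothelial cells.

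The keratins of the epidermis formed the largest group. *krt4*, a type II keratin of the zebrafish skin surface, was expressed in 16 of 16 epidermal cells (79.4 to 100%) and in 18 of 18 tubular cells. Its level was 11449 to 20242 CPM (median 13631) in the 8 outer-layer cells and 8519, 8563 and 7924 CPM in the 3 basal-layer cells, against 55.9 to 4333 CPM (median 1685) in the tubular cells. The outer-layer and basal-layer cells all lay above every tubular cell, but of the 4 epidermal cells on neither list, at 6868, 2650, 3264 and 2033 CPM, 3 lay within the tubular range. *krt4* was called by its level (log2 ratio 2.18 over tubular and 5.47 over remaining cells) and not by its share.

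*krt5*, a type II keratin paired in mammals with the keratins of basal keratinocytes, separated the classes more sharply. It was expressed in 14 of 16 epidermal cells (87.5%, interval 61.7 to 98.4%) and in 3 of 18 tubular cells (16.7%, interval 3.58 to 41.4%). The class level was 3278 CPM (3232 to 3324) in epidermal and 30.6 CPM (26.8 to 34.8) in tubular cells, a log2 ratio of 6.70. Single cells held 69 to 7027 CPM (median 5715) in the outer layer, 1782, 3662 and 5019 CPM in the basal layer and 0 to 247.1 CPM (median 3.86) in the tubular class. *krt5* was thus not restricted to the basal list, and 7 of 8 outer-layer cells expressed it.

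*krt91* and *krt17*, both type I keratins, differed in the opposite way between the layers. Each was expressed in 13 of 16 epidermal cells (81.2%, interval 54.4 to 96%) and in 0 of 18 tubular cells, which allows up to 16.7%. *krt91* stood at 89.7 to 552 CPM (median 335.3) in the outer-layer cells and at 4549, 4549 and 4741 CPM in the basal-layer cells. *krt17* stood at 953 to 3787 CPM (median 2432) in the outer-layer cells and at 407, 325.4 and 450.3 CPM in the basal-layer cells. The 2 groups of cells did not overlap in either gene, *krt91* being higher in the basal-layer and *krt17* in the outer-layer cells. How many of all tested genes separate the same cells was not computed. With 3 basal-layer cells from 2 plates, the split is a description of these cells and not a result about the keratins as a family.

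*krt1-19e* and *krt1-19d*, further type I keratins, were expressed in 75% and 56.2% of epidermal cells, against 33.3% and 0% of tubular cells. *krt1-19e* stood at 5.94 to 9327 CPM (median 5864) in the outer-layer cells and at 5176, 5718 and 5469 CPM in the basal-layer cells, against at most 168.3 CPM in a tubular cell. The log2 ratio over tubular cells was 6.59 for *krt1-19e* and 5.03 for *krt1-19d*. The other keratin symbols that marked epidermal cells were *krt15*, in 43.8%, *krt97*, in 31.2%, and *KRT222*, a keratin-like gene, in 25% of them. *krt15* was not particular to the epidermal cells. It was expressed in 10 of the 16 other epithelial cells with fewer than 2 genes of the gut list. Its median was 936 CPM in those and 9.30 CPM in epidermal cells. The calls of *krt97* and *KRT222* came from *vegfc* plate 1, where 5 and 4 of 11 epidermal cells expressed them, against 0 of 5 on plate 2.

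The claudins that marked the epidermis differed between the outer-layer and the basal-layer cells. *cldne*, *cldn23.1*, *cldn8.2* and *cldnf* were each expressed in all 8 outer-layer cells and in none of the 3 basal-layer cells, with median levels of 2913, 1369.6, 934 and 642 CPM in the outer-layer cells. *cldne*, for example, stood at 2184 to 3483 CPM there and at 0, 5.76 and 2.19 CPM in the basal-layer cells, and the other 3 claudins had no count in any basal-layer cell. In contrast, *cldni* stood at 2.97 to 41.9 CPM in the outer-layer cells and at 3956, 4146 and 3025 CPM in the basal-layer cells. *cldn1*, needed in mice for the water barrier of the skin, reached at most 5.98 CPM in the outer-layer cells and stood at 709, 959 and 901 CPM in the basal-layer cells. These were all 6 claudins that marked the epidermis, and the 8 outer-layer and 3 basal-layer cells did not overlap in them. The share of all tested genes that separate the same cells was not computed. The split is therefore a description of these cells and not a result about the claudins as a family. The single cell on both layer lists had 3175 CPM of *cldni* and 871 CPM of *cldn1*.

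**Figure D2:**
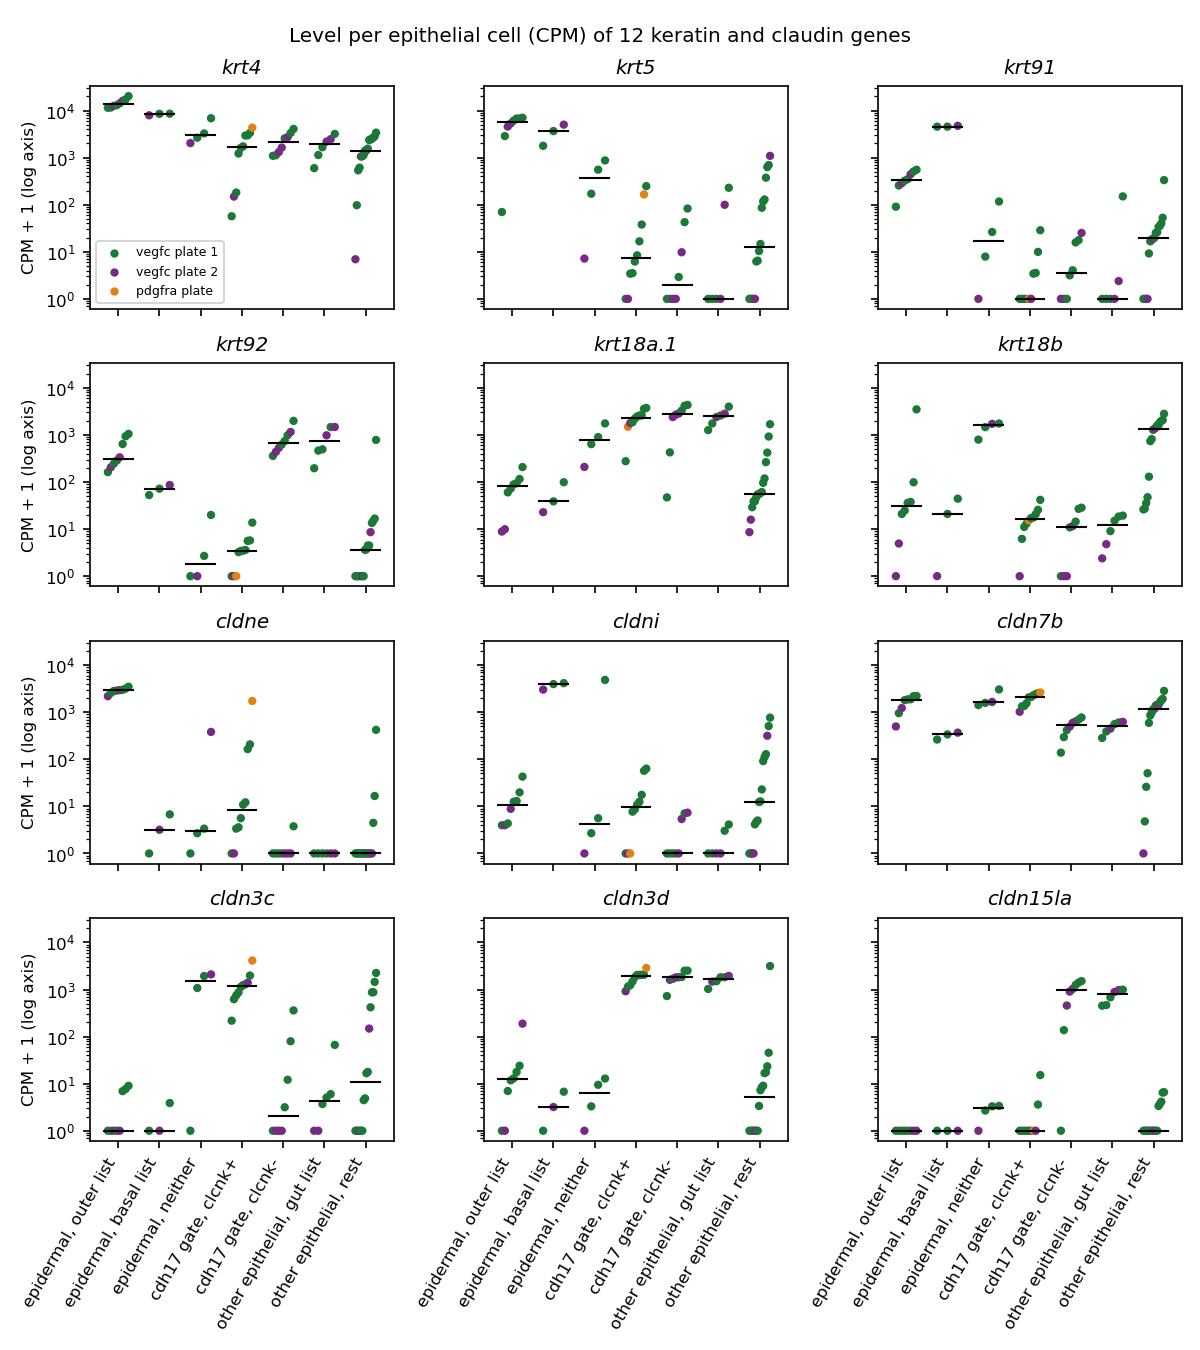
Level of each cell (CPM plus 1, log axis) of 12 keratin and claudin genes in the epithelial cells, by subset, coloured by plate, with the median as a black bar (the 1 cell on both layer lists is left out). *cldne* is high in the 8 outer-layer cells and *cldni* in the 3 basal-layer cells, while *cldn15la* and *krt92* separate the 8 *clcnk*− from the 10 *clcnk*+ cells.

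Over all 16 epidermal cells, *cldne* was expressed in 62.5% (35.4 to 84.8%) and *cldn23.1*, *cldn8.2* and *cldnf* in 56.2% each (29.9 to 80.2%), against 16.7%, 5.56%, 5.56% and 11.1% of tubular cells. The 1 tubular cell of the *pdgfra* plate, a *clcnk*+ cell, held 1733 CPM of *cldne*, 1097 CPM of *cldn23.1* and 164.3 CPM of *krt5*. Without that plate the log2 ratio of epidermal over tubular level was 5.73 for *cldne* and 7.60 for *cldn23.1*, and with it 3.82 and 3.83. On the *vegfc* plates, *cldne* was expressed in 2 of 13 tubular cells of plate 1, *cldn8.2* in 1 of these 13 and *cldnf* in 1 of 4 of plate 2, at 282.9 CPM.

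Both *vegfc* plates gave the same order for most of these genes. The genes had been called on the pooled cells, those of both plates included, and a call required a ratio above 1 on plate 1. The order on the plates is thus no independent support for the calls. The epidermal over tubular log2 ratio of *krt5* was 6.50 on plate 1 and 10.13 on plate 2, that of *krt91* 7.19 and 8.17, and that of *cldne* 5.47 and 10.01. *cldnf* had ratios of 7.72 and 1.72. *KRT222* had 5.16 on plate 1 and 0 on plate 2. Without *vegfc* plate 1, *KRT222*, *cldn23.1*, *cldnf*, *krt1-19d* and *krt97* were no longer called and 10 genes remained.

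**Figure D3:**
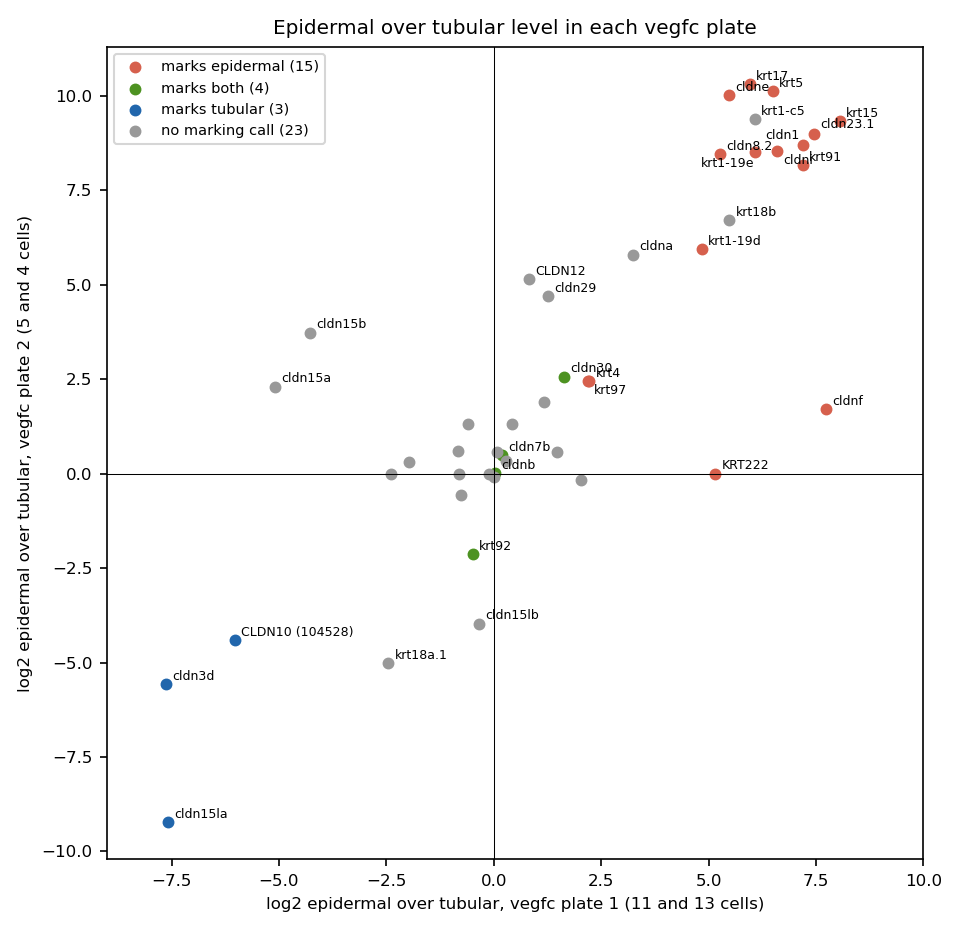
Log2 ratio of epidermal over tubular level on *vegfc* plate 1 (x axis, 11 and 13 cells) against *vegfc* plate 2 (y axis, 5 and 4 cells), each point 1 of 45 genes, coloured by call. Of the 15 genes that marked epidermal cells, 14 lie above 0 on both plates and *KRT222* lies at 0 on plate 2, and the 3 that marked tubular cells lie below 0 on both. The calls used these same cells and required this side of 0 on plate 1.

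Of the 45 genes, only claudins marked the *cdh17* cells, a class that joins *clcnk*+ and *clcnk*− cells. *cldn3d*, of the claudin 3 type, was expressed in 1 of 16 epidermal cells (6.25%) and in 18 of 18 tubular cells (81.5 to 100%), at 0 to 187.4 CPM (median 5.87) in the epidermal and 724 to 2872 CPM (median 1824) in the tubular cells. The groups did not overlap. Its log2 ratio of epidermal over tubular level was −6.69 over all cells, −7.63 on *vegfc* plate 1 and −5.57 on plate 2. *clcnk*+ and *clcnk*− cells had like amounts, with medians of 1932 and 1814 CPM. *cldn3d* was not particular to the *cdh17* cells, however, since the 6 other epithelial cells that expressed at least 2 gut genes held 1025 to 1942 CPM of it.

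The other claudins of the tubular cells divided the *clcnk*+ from the *clcnk*− cells. *CLDN10* (ENSDARG00000104528), whose mammalian counterpart forms ion pores along the nephron, was expressed in 7 of 10 *clcnk*+ cells, with 0 to 754 CPM (median 97.3), and in 1 of 8 *clcnk*− cells, at 113.1 CPM. *cldn15la*, of the claudin 15 type that forms sodium pores in the mouse intestine, had the reverse order, with 0 to 14.2 CPM in the *clcnk*+ cells and 0 to 1508 CPM (median 966) in the *clcnk*− cells, 7 of 8 of which expressed it. The 6 other epithelial cells with gut genes all expressed *cldn15la*, at 452 to 991 CPM. In epidermal cells *CLDN10* and *cldn15la* were expressed in 0 of 16 cells, which allows a share of up to 18.8%. With the *clcnk*+ cells alone as the tubular class, *cldn15la* lost its call, and its log2 ratio over the remaining cells was −1.93, against 5.18 for the whole gate. *cldn15a* and *cldn15lb*, of the same type, were each expressed in 0 of 10 *clcnk*+ and 2 of 8 *clcnk*− cells, and in 3 and 2 of the 6 cells with gut genes, while *cldn15b* was expressed in 2 of 10 *clcnk*+ and 0 of 8 *clcnk*− cells.

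*cldn3c*, a neighbour of *cldn3d* in the genome, was expressed in all 10 *clcnk*+ cells, at 216.6 to 4123 CPM (median 1189), and in 2 of 8 *clcnk*− cells. It marked neither class, because it was also expressed in 3 of 16 epidermal cells at up to 2094 CPM. *krt92*, a type I keratin, was the one keratin that split the gate. It stood at 0 to 12.7 CPM in the *clcnk*+ cells and 358.4 to 1988 CPM (median 683) in the *clcnk*− cells, and at 194.8 to 1472 CPM in the 6 cells with gut genes. It also stood at 161.1 to 1051 CPM in the outer-layer epidermal cells, which is why it met the rule for both classes. Thus *krt92*, *cldn15la* and *cldn3d* were shared by the *clcnk*− cells and the cells with gut genes, and *cldn3c* and *CLDN10* were found mainly in the *clcnk*+ cells.

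The claudins common to both epithelia were *cldn7b* and *cldnb*. *cldn7b* was expressed in 16 of 16 epidermal and 18 of 18 tubular cells, at 262.1 to 3046 CPM (median 1497) in the epidermal and 137.4 to 2622 CPM (median 1176) in the tubular cells. Its class levels were 1354 CPM in epidermal, 1263 CPM in tubular and 27.5 CPM in the remaining cells. *cldnb* was expressed in 13 of 16 epidermal and 18 of 18 tubular cells. The outer-layer cells had 2035 to 3663 CPM of it, while the 3 cells below 20 counts were the basal-layer cells, at 2.22, 20.2 and 8.74 CPM. *cldn30* was expressed in 50% of epidermal and 27.8% of tubular cells, in 5 of 10 *clcnk*+ and 0 of 8 *clcnk*− cells.

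Of 11 partners of the claudins at the tight junction that were tested, 6 met the rule for both epithelia, 5 had no call and none marked 1 class alone. The 6 were *oclna* and *oclnb*, which encode occludins, the scaffold gene *tjp3*, *f11r.1*, which encodes a junctional adhesion molecule, *marveld3* and *cgnb*, a cingulin gene. *oclnb* was expressed in 62.5% of epidermal cells, in 100% of the *clcnk*+ and in 0% of the *clcnk*− cells. Among those with no call, *marveld1* was expressed in 6.25% of epidermal and 5.56% of tubular cells, against 70.4% of fibroblasts. Of 8 genes that link keratins to the desmosome, 4 marked the epidermis, *pkp3a*, *pof1b*, *evpla* and *ppl*, 2 met the rule for both and none marked tubular cells. *evpla* and *ppl* had been among the genes that chose the epidermal cells and carry no weight here. *cyt1* and *cyt1l*, type I keratins under other symbols, were each expressed in 93.8% of epidermal and 50% of tubular cells. Their summed counts in epidermal cells, 11345 and 11070, were so close that reads may be split between near-identical copies.

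A set of epithelial cells that were neither outer nor basal by the lists expressed *krt15* and *krt1-c5*. The 4 epidermal cells on neither list had 7.10, 1868, 817 and 1497 CPM of *krt15*, a type I keratin, and 9.47, 3146, 2000.2 and 2782 CPM of *krt1-c5*, a type II keratin, in the same order of cells. The 3 cells high in both also had 1933, 1075 and 2094 CPM of *cldn3c* and 112.6, 135.4 and 232.7 CPM of *cldn29*. The remaining cell had 4846 CPM of *cldni* and 333.9 CPM of *cldn1*. All 4 expressed *krt18b*, at 793, 1744, 1462 and 1717 CPM. *krt15* was not limited to these cells. It stood at 0, 2514 and 0 CPM in the basal-layer cells, at 945 CPM in the cell on both lists and at up to 345.1 CPM in the outer-layer cells. *krt1-c5* had no count in the basal-layer cells or the cell on both lists and reached 3.34 CPM in the outer-layer cells.

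The same pattern extended to the other epithelial cells. Together with the 16 of those that lacked gut genes, 14 of 20 such cells expressed *krt15* or *krt1-c5*, 11 of them both, against 10 of the 1089 remaining cells of the series. The 1089 include the outer-layer and basal-layer cells, some of which expressed *krt15*. Of the 14, 12 expressed *krt18b*, 8 expressed *cldn3c*, and all 14 expressed *cldnb*, *cldn7b*, *krt8* and *krt4*. *cldne*, of the outer layer, was expressed in 1 of them. Of genes outside both families, *sox2* was expressed in 9 of the 14 and in 0 of the other 6, and *foxi3a*, a gene of ionocyte precursors, in 4 of the 14. *grhl3*, on the outer-layer list, was expressed in 7 of the 14 and in 1 of the other 6. The immune gene *lcp1* was expressed in 0 of the 14 and in 4 of the other 6, and the fibroblast gene *col5a1* in 5 and 1. This set was put together after the values had been seen, and no cell type is given to it.

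In fibroblasts, 6 of the 45 genes were expressed in at least 10% of cells, where 30.0% of all tested genes were. They were *krt8*, *krt18a.1*, *krt18b*, *KRTCAP2*, *CLDN11* (ENSDARG00000030723) and *krt4*. *krt4* met this rule in fibroblasts, neural and endothelial cells and is counted in each, but its share depended on the plate, as described further on. In the epithelia, 30 of the 45 were expressed by this measure in epidermal and 23 in tubular cells, where 39.6% and 44.6% of all genes were. The families were thus below the background in fibroblasts and above it in epidermal cells.

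*krt8* and the *krt18* genes, the type II and type I keratins of simple epithelia, were the keratins of the fibroblasts. *krt8* was expressed in 94.6% of 689 fibroblasts (92.7 to 96.2%), at 95.5% on the *pdgfra* plate and 98.9% and 88.6% on *vegfc* plates 1 and 2. Its level in single fibroblasts was 4.72 to 6771 CPM (median 1766). Fibroblasts without it were few on every plate. *krt18a.1* was expressed in 85.3% (82.5 to 87.9%) with a median of 1004 CPM, and *krt18b* in 72.6% (69.1 to 75.9%) with a median of 514 CPM. The share of *krt18b* was 72.5% on the *pdgfra* plate and 75.3% and 69.9% on the *vegfc* plates. Each of these keratins was thus found in most fibroblasts on every plate and in both lines.

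Type II and type I were found in the same cells. Of 652 fibroblasts with *krt8*, 618 (94.8%) also expressed *krt18a.1* or *krt18b*, and 443 of the 689 (64.3%) expressed all 3 genes. Since 641 of all 689 fibroblasts expressed *krt18a.1* or *krt18b*, the share among *krt8* cells was close to that of all fibroblasts. It is therefore no sign of pairing beyond how common these genes were. *krt18a.1* without *krt18b* was seen in 20.5% of fibroblasts, *krt18b* without *krt18a.1* in 7.69%, and none of the 3 in 2.03%. The choice of type I keratin differed between classes. All 18 tubular cells expressed *krt18a.1* at 46.1 to 4345 CPM (median 2525) and none *krt18b*, which reached 40.8 CPM at most. Of 19 endothelial cells, 14 expressed both and 5 *krt18a.1* alone. Immune cells had *krt18b* alone in 42.3% of 78 cells and *krt18a.1* alone in 14.1%, but this order depended on the plate. On *vegfc* plate 1 the shares were 24.4% and 26.8% of 41 cells, on plate 2 they were 57.6% and 0% of 33, and the 4 cells of the *pdgfra* plate had *krt18b* alone.

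In epidermal cells the keratins of simple epithelia were uneven. *krt8* stood at 15.7 to 4834 CPM (median 465) in the outer-layer cells and at 2870, 1013 and 1618 CPM in the basal-layer cells. *krt18a.1* stood at 7.86 to 206.4 CPM (median 79.6) in the outer-layer cells and at 37.8, 97.9 and 21.9 CPM in the basal-layer cells, against 275.7 to 3748 CPM (median 2341) in *clcnk*+ cells. Its log2 ratio of epidermal over tubular level was −2.91, but its level in the remaining cells, 960 CPM, kept it from marking tubular cells.

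*KRTCAP2*, which shares only its symbol with the keratins and encodes a subunit of the oligosaccharyltransferase complex, was expressed in 46% of fibroblasts, at 55.8% on the *pdgfra* plate and 37.6% and 35.8% on the *vegfc* plates. *CLDN11* (ENSDARG00000030723), a claudin of myelin and of the testis in mice, was the one claudin expressed in at least 10% of fibroblasts. It was expressed in 25.1% of them (21.9 to 28.5%), at 23% on the *pdgfra* plate and 25.8% and 28.4% on the *vegfc* plates, at 0 to 1319 CPM in single cells (median 5.69). Most fibroblasts therefore held next to none of it. In neural cells the share was 7.58%, and in immune cells 2.56%. *CLDN11* was not particular to fibroblasts. It stood at 120, 342.6 and 0 CPM in the basal-layer epidermal cells. Endothelial cells also met the rule of 10% of cells for it, at up to 269.1 CPM. On the *pdgfra* plate *CLDN19* passed 10% of fibroblasts too, at 11.9% (8.67 to 15.9%), against 6.50% on the *vegfc* plates together.

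*krt4* was read in fibroblasts by plate. The share was 5.97% on the *pdgfra* plate (3.68 to 9.07%), 56.7% on *vegfc* plate 1 (49.1 to 64.1%) and 29% on plate 2 (22.4 to 36.3%), with class levels of 41.4, 355.2 and 90 CPM. Neural cells had 52% and 25% on *vegfc* plates 1 and 2, and immune cells 82.9% and 39.4%. The *vegfc* plates thus had the same order in 3 classes that are not epithelial, and whether these cells made *krt4* themselves was not tested. *krt1-19e* followed, at 0.597%, 26.4% and 4.55% of fibroblasts.

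Low counts of other epithelial genes were also most frequent on *vegfc* plate 1. Between 1 and 19 counts of *cldnb* were found in 9.25% of fibroblasts on the *pdgfra* plate and in 91% and 38.1% on *vegfc* plates 1 and 2, and of *cdh17* in 7.76%, 54.5% and 2.84%. The counts of *krt4* per count of *krt5* were 3.07 and 2.21 in the epidermal cells of *vegfc* plates 1 and 2, and 129.4, 32.3 and 27.1 in the fibroblasts of the *pdgfra* plate and *vegfc* plates 1 and 2. In the tubular cells of *vegfc* plates 1 and 2 this ratio was 61.45 and 643.75 (on 4 counts of *krt5*). The counts of *krt4* per count of *krt1-19e* were 2.996 and 1.875 in the epidermal cells of these plates. They were 7.862 and 6.697 in the fibroblasts and 44.14 and 135.53 (on 19 counts of *krt1-19e*) in the tubular cells there. On the *vegfc* plates both ratios in fibroblasts thus lay above the epidermal and below the tubular ones. The *pdgfra* plate did not have this order. Its 1 tubular cell had 26.37 counts of *krt4* per count of *krt5*, below the 129.4 of its fibroblasts. Where the reads outside epidermal cells came from was not tested.

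Between the fibroblasts of the plates, 18 of the 45 genes were at least 2-fold lower on the *pdgfra* plate than on the *vegfc* plates together, where 12.9% of all genes were, and 1 (*cldn7a*) was at least 2-fold higher, where 7.59% were. Against *vegfc* plate 1 alone 20 were lower and 2 higher, where 12.6% and 12.1% of all genes were, and against *vegfc* plate 2 alone 8 and 1, where 14.9% and 9.54% were. The largest differences were those of *krt1-19e* (log2 −3.65), *krt94* (−3.50), *krt15* (−3.15), *krt17* (−2.85) and *cldnb* (−2.80). These were differences between low levels. In the same order, the levels were 1.37, 1.56, 0.0103, 0.134 and 1.08 CPM on the *pdgfra* plate. On the *vegfc* plates together they were 28.81, 27.98, 7.96, 7.19 and 13.53 CPM. There 15.5%, 4.8%, 1.13%, 2.54% and 1.69% of fibroblasts expressed these genes, against at most 0.597% on the *pdgfra* plate. The simple keratins did not differ by 2-fold, with log2 ratios of −0.02 for *krt8*, −0.30 for *krt18a.1* and −0.42 for *krt18b*. Within the *vegfc* line, 13 of the 45 genes were at least 2-fold higher on plate 1 than on plate 2, where 7.79% of all genes were, and 3 were lower, where 13.2% were. Plates of 1 line thus also differed in these genes, and both comparisons use the same *vegfc* plates. The line cannot be told apart from the plate.

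**Figure D4:**
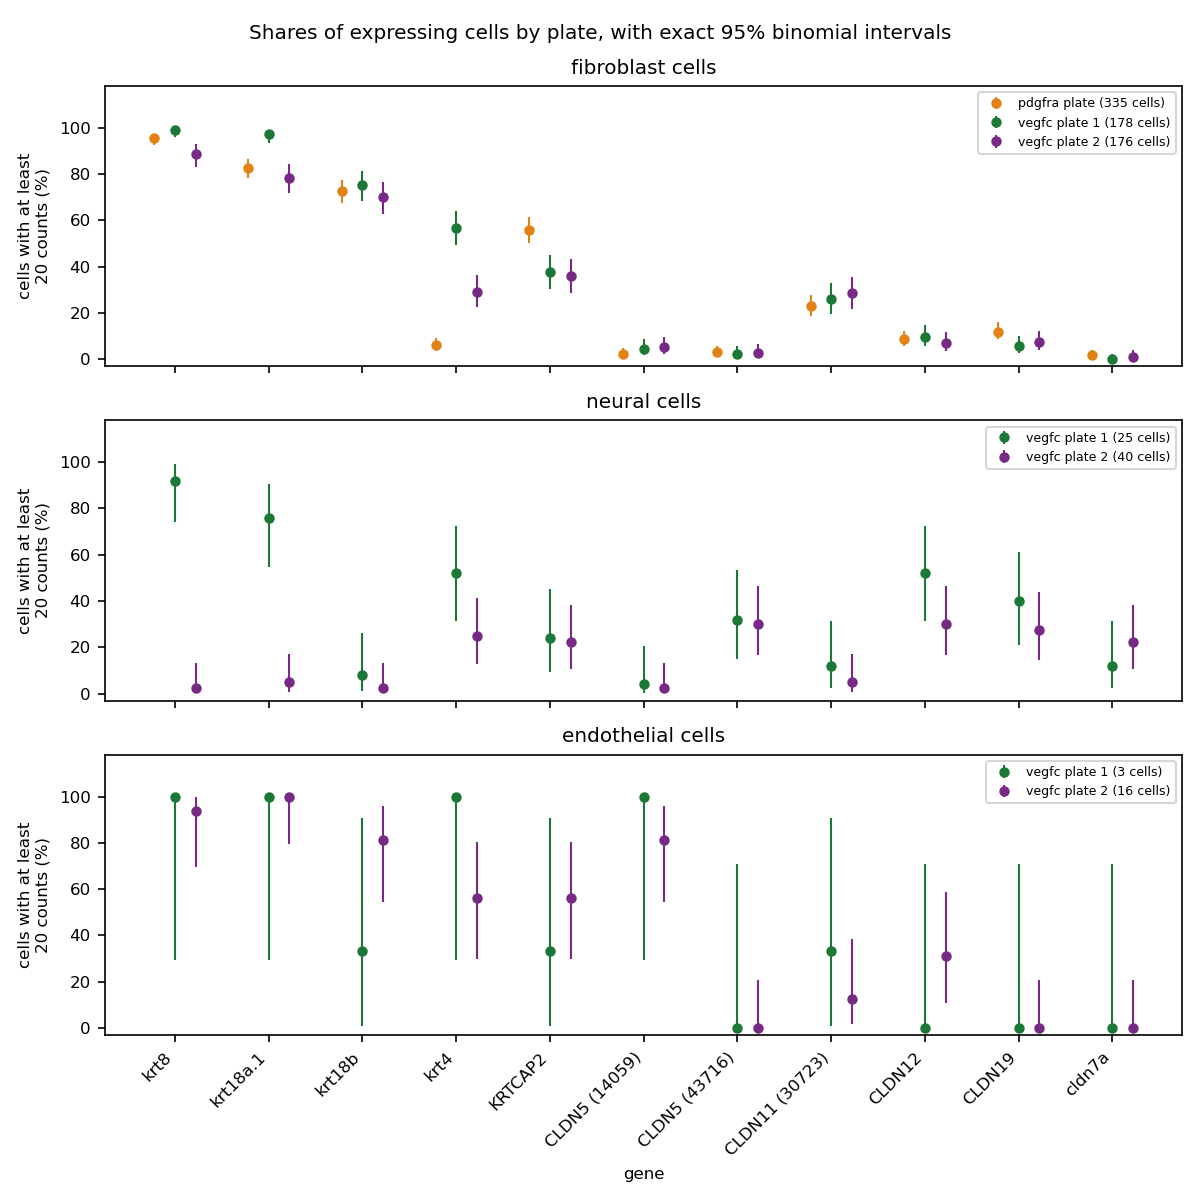
Share of fibroblasts, neural and endothelial cells (%) with at least 20 counts of 11 keratin and claudin genes, by plate, with exact 95% binomial intervals as bars; plates with under 3 cells of a class are left out, and a bracket after a symbol holds the end of the gene identifier. In fibroblasts *krt8*, *krt18a.1*, *krt18b* and *CLDN11* are found on all 3 plates while *krt4* lies at 5.97%, 56.7% and 29%, and in neural cells *krt8* is expressed in 92% of cells on *vegfc* plate 1 and 2.5% on plate 2.

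In neural cells 8 of the 45 genes reached 10% of cells, where 33% of all genes did. Of these, *CLDN12*, *CLDN19*, *CLDN5* (ENSDARG00000043716) and *cldn7a* were claudins. *CLDN12* was expressed in 37.9% of 66 cells (26.2 to 50.7%), at 52% on *vegfc* plate 1 and 30% on plate 2, at 0 to 924 CPM (median 0). It was not limited to them, since 30.8% of immune and 26.3% of endothelial cells also expressed it. *CLDN19*, a claudin of Schwann cells in mice, was expressed in 31.8% (20.9 to 44.4%), at 40% and 27.5%, against 9.14% of fibroblasts and 0 of 19 endothelial cells, which allows a share of up to 15.8%. *CLDN5* (ENSDARG00000043716) was expressed in 30.3% (19.6 to 42.9%), at 32% and 30%, at up to 607 CPM. *cldn7a* was expressed in 18.2% (9.76 to 29.6%), at 12% and 22.5%, at up to 2064 CPM, against 1.16% of fibroblasts. These 4 claudins were expressed in neural cells of both *vegfc* plates, each in a minority of the cells except *CLDN12* on plate 1. The *pdgfra* plate held 1 neural cell.

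*krt8* and *krt18a.1* differed between the plates in neural cells. *krt8* was expressed in 92% of 25 neural cells on *vegfc* plate 1 (74 to 99%) and in 2.5% of 40 on plate 2 (0.0633 to 13.2%), with medians of 35 and 5 counts. *krt18a.1* was expressed in 76% and 5%. The 1 neural cell of the *pdgfra* plate expressed both, at 398 and 578 CPM. Immune cells differed likewise, with *krt8* in 100% of 41 cells on plate 1 and in 54.5% of 33 on plate 2, and *krt18a.1* in 63.4% and 3.03%. Without *vegfc* plate 1, neither gene counted as expressed in neural cells and 6 of the 45 genes did.

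In endothelial cells 8 of the 45 genes reached 10% of cells, where 39.9% of all genes did. *CLDN5* (ENSDARG00000014059), which carries the symbol of the mammalian claudin of the vessel wall, was expressed in 16 of 19 cells (84.2%, interval 60.4 to 96.6%). The 3 cells of *vegfc* plate 1 had 1648, 1425 and 4352 CPM and the 16 of plate 2 had 6.23 to 2989.8 CPM (median 1338). It was expressed in 3.63% of fibroblasts, in 3.03% of neural cells and in 0 of 78 immune cells, for which 0 cells allow up to 3.85%. The other gene with this symbol, the one found in neural cells, was expressed in 0 of 19 endothelial cells, which allows up to 15.8%. The 2 genes under the symbol *CLDN5* were thus divided between endothelial and neural cells.

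Endothelial cells also expressed the simple keratins. *krt18a.1* was found in 19 of 19 cells (82.4 to 100%) at 992 to 5536 CPM (median 2971), and *krt8* in 18 of 19 at 50.1 to 5083 CPM (median 2234). On *vegfc* plate 1 the 3 cells had 1731, 399 and 171.6 CPM of *krt8*. *krt18b* was expressed in 1 of 3 cells on plate 1 and in 13 of 16 on plate 2. *krt4* was expressed in 3 of 3 and in 9 of 16, a share of 63.2% over both plates.

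Of the epidermal claudins, *cldni* had a further place of expression. It was found in 75 of 78 immune cells (96.2%, interval 89.2 to 99.2%) at 21.5 to 2692 CPM (median 601), and in 1.60% of fibroblasts. The 4 immune cells of the *pdgfra* plate all expressed it, as did 95.1% and 97% of those on *vegfc* plates 1 and 2, with class levels of 621, 731 and 722 CPM. *cldn1*, the other claudin of the basal-layer cells, was expressed in 0 of 78 immune cells, which allows a share of up to 3.85%. *cldni* thus marked epidermal over tubular cells and was, in all 3 plates, also a gene of the immune cells.

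Some neighbouring genes shared a call and others did not. In the order of genes on the RefSeq assembly GRCz12tu, 54 of the 63 genes were matched by symbol and 31 of them lay in 12 runs of neighbouring keratin or claudin genes. *krt17* and *krt91* are neighbours and both marked epidermal cells, as did *krt1-19d* and *krt1-19e*, whose next neighbour *krt92* met the rule for both epithelia. *cldne* and *cldnf* lie between *cldnj* and *cldna*, which had no call. The run of *cldn3c*, *cldn3d*, *cldnb*, *cldn29* and *cldn30* held a tubular call, 2 calls for both epithelia and no epidermal one. *krt5*, which marked epidermal cells, lies beside *krt8* and *krt18a.1*, which were shared with fibroblasts and endothelial cells. Reads that fit more than 1 of such related genes may have been split or lost in counting.

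Among the genes with no call, *cldna*, *cldn15a*, *cldn15b*, *cldn15lb*, *cldn29*, *cldng*, *cldnd1a*, *CLDND1* and *krt94* were expressed in under 10% of fibroblasts, of neural and of endothelial cells, the highest share being 7.58%, of *cldnd1a* in neural cells. *cldnd1a* and *CLDND1* are claudin domain genes that the symbol rule takes in. The 18 genes below the filter were *krt18a.2*, *krt93*, *krt95*, *krt98*, *krt99*, *CLDN2*, *cldn10d*, *cldn10e*, *cldn10l2*, *cldn18*, *CLDN23*, *cldn23l*, *cldn26*, *cldn33b*, *cldnd*, *cldnk* and the second genes under the symbols *CLDN10* and *CLDN11*. Of these, *krt95*, *cldn10d* and *cldn33b* had no count in any of the 1109 cells. *CLDN8* and *cldnj* passed the filter with no cell at 20 counts. Genes below the filter could still be read in single cells. In the outer-layer cells *cldnk* stood at 0 to 359.3 CPM (median 71.7) and *krt99* reached 1191 CPM. In fibroblasts *cldn18* and *CLDN2* reached 458.9 and 429.6 CPM. No gene is said to be absent from the trunk, and all these values hold only at this depth in the cells sorted here.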

How the data were processed

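Single-cell RNA libraries of 1109 cells on 3 plates were used. After trimming by trim galore, the authors mapped reads to GRCz11 by TopHat2, which runs Bowtie2, and used samtools against what they term doublets. Raw counts per gene and cell, from featureCounts (Subread) and after a filter on cells by depth and genes, were deposited. That filter also took out cells with very many expressed genes, which the authors held to be possible doublets. No further doublet caller was run here. No 2 cells had identical counts, and 0 columns belonged to other samples.

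Counts were summed per class and plate and scaled to CPM (Python 3.11.15, numpy 2.4.6, pandas 2.3.3, scipy 1.17.1, matplotlib 3.10.9). Shares have exact Clopper-Pearson and levels exact Poisson 95% intervals. The limits given for 0 cells are an approximation that lies below the upper Clopper-Pearson limit. Genes needed 3 cells and 300 counts in all. Symbols came from a table that named 28988 of 32057 genes and were matched in any case where unique. 14 members are written in capitals and 6 share a symbol with another. Matched markers numbered 12 of 12 epidermal, 9 of 16 tubular, 6 of 6 fibroblast, 5 of 8 neural, 7 of 10 endothelial and 6 of 9 immune genes. A class needed 5 epidermal, 4 fibroblast, 2 neural, 4 endothelial or 4 immune markers at 20 counts. These numbers were set after the marker values had been seen. A marking call also needed a ratio above 1 over the other epithelial class on each plate with 5 cells of both, which only *vegfc* plate 1 had.

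The members and lists were chosen with earlier results of these data known. The call for both epithelia, the split by *clcnk* and the alternatives on it were added after seeing the data. Named genes were up to 10 marking each epithelial class and up to 5 expressed in each other class, by share. All others were named after their values were seen. The calling step was tested on simulated data. Alternatives used other thresholds of counts, shares and ratios, other pseudocounts and filters, cells thinned to 50000 counts, classes by clustering at resolution 3 (scanpy 1.11.5, igraph 0.11.9), TMM factors (edgeR 4.0.16, R 4.3.3), other marker numbers and each plate left out.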

Additional observations from a re-analysis of the deposited data

How the results depend on the processing

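The numbers of genes called were 15 for epidermal, 3 for tubular, 6 for fibroblast, 8 for neural and 8 for endothelial cells. Of these, endothelial cells had 14 at a threshold of 10 counts and 16 at a share of at least 5%, and tubular cells had 1 (*cldn3d*) at a share of at least 50%. With each plate left out in turn the counts lay between 10 and 14 for epidermal, 3 and 3 for tubular, 6 and 7 for fibroblast, 6 and 12 for neural and 8 and 10 for endothelial cells. Without *vegfc* plate 1, *CLDN10* lost its tubular call and *cldn15lb* gained one. With classes from clustering, 11 genes marked epidermal cells, 10 of them among the 15, and with 4 markers in place of 5, 30 cells were epidermal and 10 genes were called. *krt4* was lost under both. These counts are given without the share of all tested genes called under the same setting. They therefore do not show whether the keratins and claudins moved against the background. The log2 ratio of *cldn15la* in tubular over remaining cells reversed to −1.93 with *clcnk*+ cells alone. Over all alternatives, 84.4% of the shares of named genes stayed within their counting error. Of their log2 ratios and the calls for both epithelia, 89.7% were counted as unchanged. A ratio was allowed to shift by the standard deviation of its epidermal over tubular ratio between the *vegfc* plates. This was wide for genes such as *krt5* and *cldne*, so that the check was weak for them. The calls for both epithelia were judged by their number alone. No paired analysis was possible because the plates carry no shared replicate numbers between groups and no test was made. The classes are small, and among 16 epidermal cells a share of 50% has an interval of 24.7 to 75.3%. The 3 basal-layer cells allow a description only, and the *pdgfra* plate holds no epidermal or endothelial cell.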
